A study of Mus musculus with 16 samples.

Results

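Imprinted genes, whose transcription in mammals depends on the parent that passed on the allele, were followed in germline stem cells (GSCs) cultured from male mice. The members were 44 imprinted genes listed by symbol: 22 expressed from the maternal allele, 21 from the paternal allele, and Gnas, whose transcripts differ in parental origin. Rows with exactly these symbols were found for 40 of the 44, out of 27128 genes in each table: 19 maternally expressed, 20 paternally expressed, and Gnas. The maternally expressed Meg3, Rian and Mirg and the paternally expressed Kcnq1ot1 had no row under these symbols and were not analysed here. A row named Gtl2, an older name of Meg3 in the RefSeq table, was kept apart from the members.

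RNA sequencing covered 4 experiments with 12 libraries, and no group was sequenced more than once. The differences given here therefore have no replicates behind them and no test between groups. The mice, B6;CBA-Tg(Pou5f1-EGFP)2Mnn/J for all libraries, carry a transgene in which the Pou5f1 (Oct4) promoter drives GFP, and their age was labelled as postnatal day 5.5. Germ cells positive for the reporter and without KIT were sorted and then kept in StemPro-34 SFM, to which the growth factors GDNF, bFGF and EGF were added. In the feeder-removal series, cells on mouse embryonic fibroblast (MEF) feeders (day 0) were moved onto Matrigel, a basement membrane extract, and sampled on days 4 and 9. The density experiment had a library labelled EL, called epithelial-like, on Matrigel at 0.1 µg/cm2 and a library labelled ML, called mesenchymal-like, at 10 µg/cm2. For the sorted series, cells grown at the higher density were parted by their reporter into fractions named GFP-low, GFP-mid and GFP-high. For the inhibitor series, cells on MEF feeders received DMSO, the solvent control, or UNC0638, an inhibitor of the histone methyltransferases G9a (Ehmt2) and GLP (Ehmt1). The doses were 0.5, 1 and 2 µM and the exposure 48 hours. How many mice or cultures stood behind a library is not given in the sources used here.

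Imprinting rests on DNA methylation that differs between the parental alleles at control regions, is erased in primordial germ cells and is set again by the sex of the parent. In the male line the paternal marks, such as that at the H19 and Igf2 control region, are laid down in prospermatogonia before birth, while most maternally methylated regions stay unmethylated. Many imprinted genes act on growth: several maternally expressed ones restrain it, such as Cdkn1c, Phlda2, Grb10 and Igf2r, and several paternally expressed ones promote it, such as Igf2. The tables hold summed counts per gene, so the allele of origin cannot be read from them, and the names of the 2 classes are used here as known from other tissues.

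Library totals ranged from 4335185 to 12019651 counts, and the floor of 3 counts per library was worth 0.238 to 0.724 CPM. CPM are counts scaled to a common library size after TMM and compare 1 gene between libraries, while TPM are also divided by gene length and compare genes. Of 20 germ-cell markers, none was at 0 in any library, and their summed level ranged from 4603 to 7700 CPM. The 20 fibroblast markers summed to 155 to 417 CPM in 7 libraries, and to 8004 CPM in the mesenchymal-like library, 3931 CPM in the DMSO library, and 1392, 610.0 and 760.1 CPM at 0.5, 1 and 2 µM UNC0638; the fibroblast activation gene Fap was at 0 or 1 count throughout. The 12 myeloid markers summed to 8.09 to 45.6 CPM outside the sorted series, and in the fractions GFP-low, GFP-mid and GFP-high to 1913, 1734 and 225 CPM. Sertoli markers summed to 4.39 to 26.8 CPM with Fshr at 0 everywhere, Leydig and peritubular markers to 8.40 to 195 CPM with Insl3, Hsd3b1 and Cyp17a1 at 0 everywhere, and endothelial markers to 35.8 to 66.8 CPM. In such bulk samples, fewer cells of a type and less RNA per cell cannot be told apart.

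Of the 40 genes, 35 reached a mean of 1 CPM over the 12 libraries and entered the counts below: 15 maternally expressed, 19 paternally expressed, and Gnas. A gene that passed this filter only through its high libraries had to differ between libraries, so the counts are descriptions. Dio3 and Slc22a2, both called below, passed with means of 1.20 and 1.10 CPM but had medians of 0.798 and 0.876 CPM. Their highest libraries were GFP-high for Dio3, at 4.88 CPM, and day 0 for Slc22a2, at 3.89 CPM. The 5 that did not pass were the maternally expressed Calcr (calcitonin receptor), Kcnq1 (a potassium channel), Slc22a3 (an organic cation transporter) and Zim1 (a zinc finger gene), and the paternally expressed Magel2 (a MAGE family gene). These 5 had at most 18 counts in any library. A gene was called changed when CPM + 1 differed at least 2-fold, that is by 1 on the log2 scale; the pseudocount understates the change of low genes. Members are described in full only where the higher library of a comparison had at least 50 counts.

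Among maternally expressed genes, Cd81, a tetraspanin of the cell surface, had the highest mean level at 245 TPM (range over the 12 libraries 136 to 491). It was followed by Tssc4 at 72.6 TPM (59.8 to 105), Cdkn1c at 41.9 TPM (7.76 to 88.1), Ube3a at 31.3 TPM (26.2 to 37.3) and H19 at 26.2 TPM (14.7 to 43.98). The range of Cd81 lay above that of Tssc4, while each later neighbour overlapped the one before it. Among paternally expressed genes Slc38a4 came first at 94.5 TPM (48.2 to 143), then Ndn at 79.7 TPM (57.2 to 106), Igf2 at 65.6 TPM (27.5 to 98.7), Nnat at 47.95 TPM (32.2 to 60.7) and Mest at 36.6 TPM (27.9 to 51.7). Neighbours in this order overlapped in every case. Gnas, which encodes the stimulatory G protein alpha subunit among other products, had a mean of 153 TPM (41.5 to 504). In all 12 libraries, 9 of the 19 maternally expressed and 14 of the 20 paternally expressed genes were at 1 TPM or more.

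**Figure D1:**
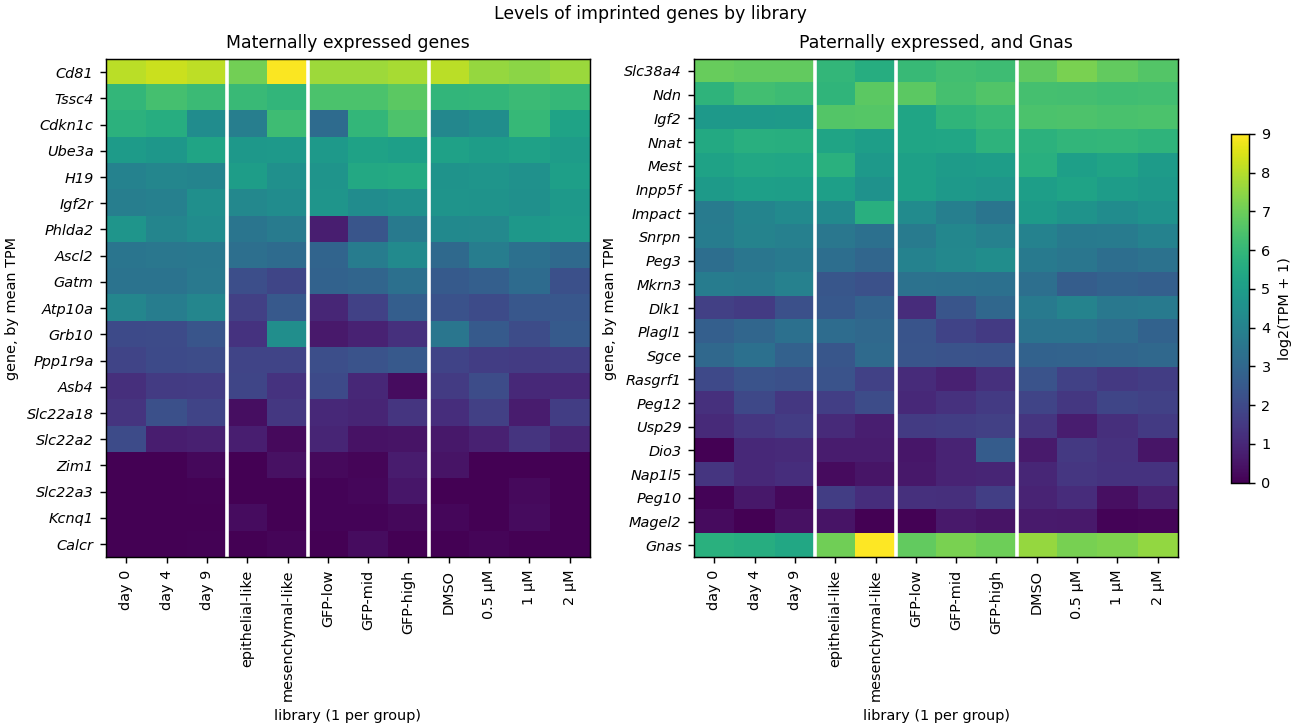
Level of each imprinted gene in each library as log2(TPM + 1), with genes in rows ordered by mean TPM and the 12 libraries in columns, 1 library per group; white lines part the 4 experiments. Cd81 and Gnas are brightest in the mesenchymal-like column, and Calcr, Kcnq1, Slc22a3 and Zim1 stay dark in every column.

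The density experiment asked how cells on dense Matrigel differ from cells on sparse Matrigel. Of the 35 genes, 7 were at least 2-fold higher in the mesenchymal-like library and 0 lower, against 12.5% of the 14301 genes tested in either direction, 10.7% higher and 1.78% lower. They were the maternally expressed Grb10, Cdkn1c, Cd81, Atp10a and Slc22a18, the paternally expressed Impact, and Gnas. Slc22a18 had 1 and 7 counts. The 15 maternally expressed genes had a median log2 ratio of 0.13 with 5 at least 2-fold higher, and the 19 paternally expressed genes a median of -0.14 with 1 at least 2-fold higher. The median over all genes tested was -0.06. The summed fibroblast level was 22.2-fold higher in the same library, and 17 of its 19 tested markers were at least 2-fold higher; the part of fibroblast RNA in these changes was not tested.

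Grb10, an adaptor protein that dampens insulin and IGF receptor signalling, rose most in the density experiment. It was at 4.93 CPM in the epithelial-like and 71.2 CPM in the mesenchymal-like library, from 21 and 295 counts, with a log2 ratio of 3.61 and a 95% Clopper-Pearson counting interval of 3.21 to 4.57. Each interval given here is that of the ratio of the 2 levels without the pseudocount, so it is not centred on the printed ratio and lies farther from 0 for low genes. The intervals cover counting error only, since copies made by PCR were not marked and reads are then not separate molecules. In the inhibitor series the DMSO library had 32.1 CPM of Grb10, and the doses of 0.5, 1 and 2 µM had 14.6, 9.95 and 14.9 CPM. It was at 9.33, 9.48 and 11.6 CPM at days 0, 4 and 9, and across the fractions GFP-low, GFP-mid and GFP-high at 1.63, 2.38 and 3.72 CPM. The mesenchymal-like and DMSO libraries were thus the highest of the 12, and the GFP-low fraction the lowest. The fibroblast sum was likewise highest in the mesenchymal-like and DMSO libraries and lowest in the GFP-low fraction.

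Cd81 lies next to Tssc4 on chromosome 7. It was at 122.5 CPM in the epithelial-like and 457.5 CPM in the mesenchymal-like library (log2 ratio 1.89, counting interval 1.76 to 2.04). In the other experiments its levels were close together: 219, 248 and 203 CPM at days 0, 4 and 9, and 166, 157.5 and 163 CPM from GFP-low to GFP-high. The inhibitor doses of 0.5, 1 and 2 µM had 155, 143 and 169 CPM, and DMSO had 216 CPM. Only the mesenchymal-like library stood above 250 CPM. Tssc4 itself had 57.97 CPM in the epithelial-like and 52.6 CPM in the mesenchymal-like library. It was at 47.45, 60.4 and 48.9 CPM at days 0, 4 and 9, at 64.8, 63.3 and 70.6 CPM from GFP-low to GFP-high, and at 45.9, 47.2, 53.4 and 49.25 CPM from DMSO to the top dose, with no library far from the rest.

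Gnas was at 166 CPM in the epithelial-like and 555 CPM in the mesenchymal-like library (log2 ratio 1.74, counting interval 1.62 to 1.87). It was at 138, 152 and 125 CPM from GFP-low to GFP-high. Of the inhibitor series, DMSO had 210.4 CPM and the rising doses 156, 164 and 199 CPM. The 3 feeder-removal libraries were lowest, at 57.4, 52.1 and 44.1 CPM. The deposited row sums several RefSeq transcripts of this gene, so its maternal and paternal products cannot be told apart. Impact, which encodes an inhibitor of the amino acid sensing kinase GCN2, was at 40.4 CPM in the epithelial-like and 118 CPM in the mesenchymal-like library (log2 ratio 1.52, 1.29 to 1.80). It was the paternally expressed gene that passed 2-fold there. Impact was at 25.15, 31.15 and 35.1 CPM at days 0, 4 and 9, and at 58.9, 48.5, 40.3 and 48.1 CPM from DMSO to the top dose.

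Promoters of the genes that were higher together in the mesenchymal-like library are shown because these genes share that change and differ elsewhere. RefSeq's promoter table (GRCm38.p6) held 38 of the 44 listed genes and 4 of the 6 with at least 50 counts in the higher library. Each sequence is the 250 bases before an annotated start, 5′ to 3′ on the gene's strand, with CG dinucleotides in capitals. All starts listed for these genes were searched, and all are printed but start 3 of Gnas, which nearly coincides with its start 1.
Grb10, first start, chr11:12037421-12037670, minus strand: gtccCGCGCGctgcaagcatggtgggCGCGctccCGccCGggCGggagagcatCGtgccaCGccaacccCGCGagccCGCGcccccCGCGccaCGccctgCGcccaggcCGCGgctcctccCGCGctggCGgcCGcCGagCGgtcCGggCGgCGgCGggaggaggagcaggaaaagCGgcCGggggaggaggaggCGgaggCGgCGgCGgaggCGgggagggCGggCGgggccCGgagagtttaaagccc
Grb10, second start, chr11:12027972-12028221, minus strand: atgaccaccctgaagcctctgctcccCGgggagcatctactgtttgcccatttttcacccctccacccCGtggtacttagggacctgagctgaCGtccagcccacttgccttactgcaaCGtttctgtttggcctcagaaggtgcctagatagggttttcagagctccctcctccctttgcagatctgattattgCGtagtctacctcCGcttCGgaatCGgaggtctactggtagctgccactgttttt
Cd81, chr7:143052500-143052749, plus strand: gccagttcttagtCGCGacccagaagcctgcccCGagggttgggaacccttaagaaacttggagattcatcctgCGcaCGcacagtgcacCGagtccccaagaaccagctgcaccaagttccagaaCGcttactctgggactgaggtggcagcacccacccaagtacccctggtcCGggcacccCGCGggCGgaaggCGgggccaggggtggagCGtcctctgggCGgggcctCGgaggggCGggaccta
Atp10a, chr7:58657952-58658201, plus strand: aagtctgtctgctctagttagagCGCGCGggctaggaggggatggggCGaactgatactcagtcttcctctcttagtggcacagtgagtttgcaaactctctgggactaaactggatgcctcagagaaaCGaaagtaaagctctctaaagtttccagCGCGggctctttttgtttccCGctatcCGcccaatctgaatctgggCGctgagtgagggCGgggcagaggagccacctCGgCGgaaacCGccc
Gnas, start 1, chr2:174327499-174327748, plus strand: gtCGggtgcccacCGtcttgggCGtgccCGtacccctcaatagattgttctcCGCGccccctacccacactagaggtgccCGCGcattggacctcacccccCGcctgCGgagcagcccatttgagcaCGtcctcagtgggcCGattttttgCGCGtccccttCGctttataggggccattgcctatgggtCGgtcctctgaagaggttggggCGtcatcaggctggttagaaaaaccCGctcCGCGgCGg
Gnas, start 2, chr2:174284070-174284319, plus strand: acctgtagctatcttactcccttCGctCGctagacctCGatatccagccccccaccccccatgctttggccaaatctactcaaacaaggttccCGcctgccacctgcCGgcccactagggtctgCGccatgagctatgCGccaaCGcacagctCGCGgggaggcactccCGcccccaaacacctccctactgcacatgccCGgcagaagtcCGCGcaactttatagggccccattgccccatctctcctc
Gnas, start 4, chr2:174329756-174330005, plus strand: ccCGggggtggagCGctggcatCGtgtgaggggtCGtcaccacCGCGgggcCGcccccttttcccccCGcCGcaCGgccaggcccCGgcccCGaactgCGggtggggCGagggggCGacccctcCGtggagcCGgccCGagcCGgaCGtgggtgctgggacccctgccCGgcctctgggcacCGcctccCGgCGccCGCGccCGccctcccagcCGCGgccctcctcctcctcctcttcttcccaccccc
The 2 Grb10 windows held 40 and 8 CG, the Cd81 window 16, the Atp10a window 14, and the 4 Gnas windows 21, 14, 22 and 29, against a median of 6 over 32851 windows. As many or more were found in 1.31% and 43.0% of all windows for Grb10, 25.4% for Cd81, 29.4% for Atp10a, and 16.3%, 29.4%, 14.8% and 6.78% for Gnas. The first Grb10 window and the Gnas window at start 4 were the richest, and the others held numbers that 14.8% or more of all windows reached. The GC box GGGCGG, searched on both strands, was in the first Grb10 window, those of Cd81 and Atp10a, and those at starts 2 and 4 of Gnas, and in 32.7% of all windows. TATAAA, searched likewise, was in the first 3 Gnas windows and in 12.4% of all windows. Which start was used cannot be read from gene counts, and these letters are a description of the windows.

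Cdkn1c, which encodes the cyclin-dependent kinase inhibitor p57 and holds back the cell cycle, changed in every experiment. In the density experiment it had 15.5 CPM in the epithelial-like and 86.4 CPM in the mesenchymal-like library, a log2 ratio of 2.41 (2.10 to 2.88). From GFP-low to GFP-mid and GFP-high it was at 8.15, 62.3 and 83.2 CPM, so that the step to GFP-mid (log2 ratio 2.79, 2.57 to 3.32) made up most of its rise. With DMSO it was at 17.6 CPM, and with 0.5, 1 and 2 µM UNC0638 at 21.6, 69.1 and 39.2 CPM. The ratio to DMSO was 1.92 at 1 µM (1.64 to 2.33) and 1.11 at 2 µM (0.78 to 1.54), so the highest level was at 1 µM and not at the top dose. With a pseudocount of 5 the ratio at 2 µM was 0.97. At days 0, 4 and 9 it was at 56.1, 49.4 and 18.9 CPM, a fall by day 9 with a log2 ratio of -1.52 (-1.81 to -1.34). Over the 12 libraries it ranged from 8.15 to 86.4 CPM, and each experiment held both a library under 25 CPM and one above 50 CPM.

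Cdkn1c kept to the fibroblast markers in some experiments and not in others. It rose with them in the mesenchymal-like library. From GFP-low to GFP-high Cdkn1c rose too, as their sum went from 155 to 220 and 354 CPM. There 10 of the 19 tested markers (52.6%) were at least 2-fold higher in GFP-high, against 6.94% of all genes tested. With 1 and 2 µM UNC0638 Cdkn1c rose while their sum was 6.45-fold and 5.17-fold lower. In the feeder-removal series the fibroblast markers did not move as 1: at day 9, 10 of the 19 tested were higher than at day 0 and 9 lower. Bgn, Postn and Tnc were at least 2-fold higher (15.8%, against 1.62% of all genes tested) and 0 were 2-fold lower. The fibroblast sum was 398, 403 and 417 CPM at days 0, 4 and 9, while Cdkn1c fell by day 9. Acta2, the smooth muscle actin gene of the Leydig and peritubular list, was picked out after its values were seen. It was at 44.98, 58.99 and 6.92 CPM at these times and at 2.11 CPM in the epithelial-like and 189 CPM in the mesenchymal-like library, so that it was lower at day 9 and higher in the mesenchymal-like library, as Cdkn1c was. From DMSO to the top dose of UNC0638 it was at 16.4, 13.9, 4.71 and 6.87 CPM, lower where Cdkn1c was higher, and between the GFP fractions it was at 1.63 CPM or less. Star, a steroidogenic gene of the same list, went the other way in feeder removal and density: 0.907, 2.62 and 5.12 CPM at days 0, 4 and 9, and 7.04 and 4.83 CPM in the density experiment. From GFP-low to GFP-high Star rose as Cdkn1c did, at 6.02, 9.42 and 10.9 CPM. From DMSO to the top dose Star was at 4.59, 6.74, 3.67 and 10.1 CPM, higher at 2 µM and lower at 1 µM than with DMSO. The smooth muscle gene Cnn1 had at most 36 counts and was at 2.72, 3.05 and 0.244 CPM at days 0, 4 and 9, and Myh11, another, had at most 22 counts and was at 1.69, 0 and 1.63 CPM. Myh11 was at 0.502, 1.74 and 2.02 CPM from GFP-low to GFP-high, and at 1.20, 3.27, 2.09 and 3.67 CPM from DMSO to the top dose. Of the list's other genes, Hsd3b1, Insl3 and Cyp17a1 were at 0 throughout and Cyp11a1 had at most 10 counts. The part of such cells in the Cdkn1c changes was not tested.

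**Figure D2:**
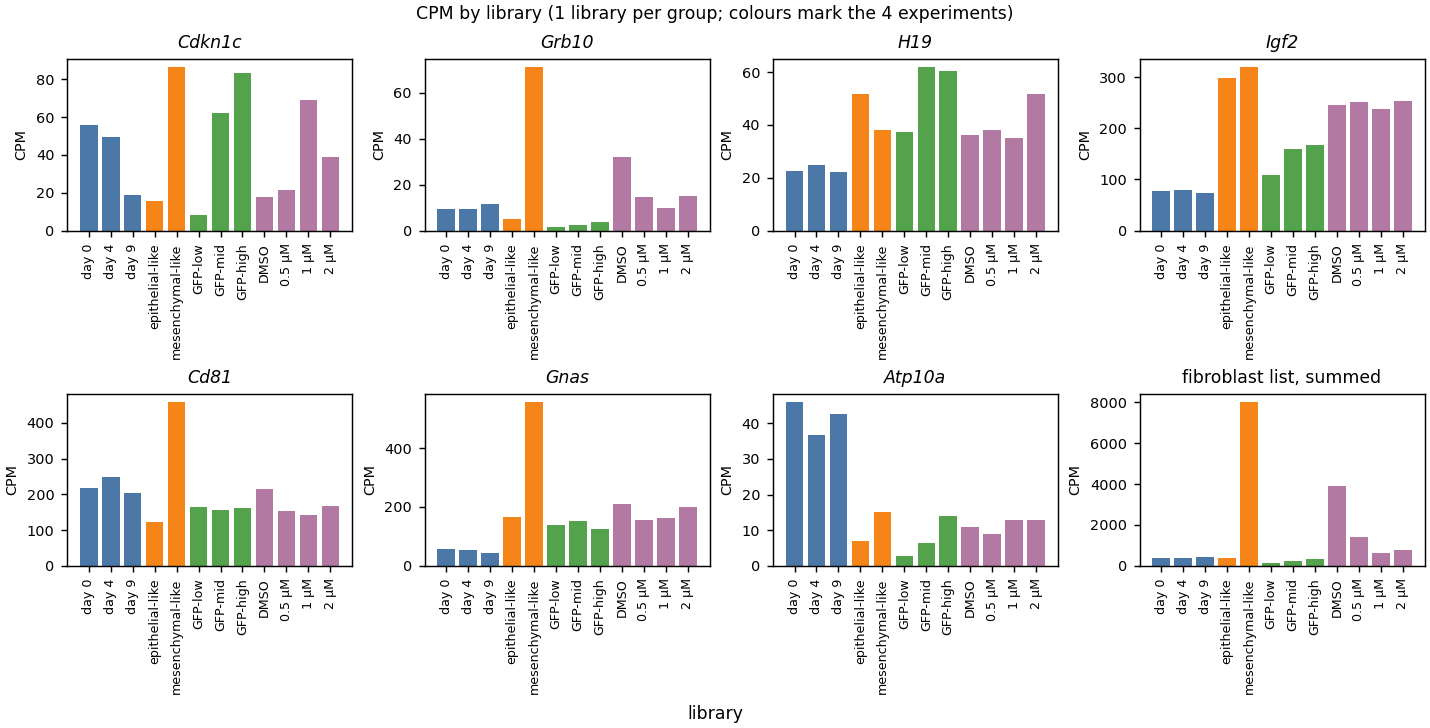
CPM in each of the 12 libraries (bars, 1 library per group, colour by experiment, each axis from 0) for 7 imprinted genes and for the sum of 20 fibroblast markers. The Grb10 and fibroblast panels both peak in the mesenchymal-like and DMSO libraries, while Cdkn1c is also high in GFP-mid, GFP-high and 1 µM.

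The sorted series asked what sets apart cells with low and high signal of the Pou5f1 reporter. Between GFP-high and GFP-low, 8 of the 35 genes (22.9%) differed at least 2-fold, 6 higher and 2 lower, against 9.54% of all genes tested, 6.94% higher and 2.59% lower. The 6 were the maternally expressed Cdkn1c, Phlda2, Ascl2 and Atp10a and the paternally expressed Dlk1 and Dio3. The maternally expressed Asb4 and the paternally expressed Plagl1 were lower. Between GFP-mid and GFP-low 3 genes (8.57%) passed 2-fold, against 4.07% of all genes, 3.38% higher and 0.685% lower: Cdkn1c and Dlk1 higher, Asb4 lower. Both comparisons share the GFP-low library.

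The GFP-mid level lay in between for each of these 8 genes. Genes in that order with a log2 range of at least 1 made up 5.99% of all genes tested rising from low to high and 2.13% falling, and 17.1% and 5.71% of the 35 imprinted genes. The fibroblast sum was 155, 220 and 354 CPM from GFP-low to GFP-high and the myeloid sum 1913, 1734 and 225 CPM, so both moved along the same fractions; their part in the changes was not tested. All 11 tested myeloid markers were at least 2-fold lower in GFP-high, and 10 of the 19 tested fibroblast markers were at least 2-fold higher.

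Ascl2, a basic helix-loop-helix transcription factor, was at 5.64, 10.6 and 14.7 CPM from GFP-low to GFP-high (log2 ratio of high to low 1.24, counting interval 0.88 to 1.90). It was at 8.95, 9.48 and 9.11 CPM at days 0, 4 and 9, at 8.45 and 7.97 CPM in the density experiment, and at 6.59, 11.55, 8.03 and 6.64 CPM from DMSO to the top dose. The GFP-low and GFP-high fractions were the lowest and the highest of the 12. With a pseudocount of 5 the ratio was 0.88. Atp10a, a phospholipid-transporting ATPase, was at 2.76, 6.34 and 14.01 CPM (2.00, or 2.34 without the pseudocount, 1.69 to 3.07). From DMSO to the top dose Atp10a was at 10.8, 9.05, 12.7 and 12.8 CPM, with little spread. In the density experiment it was at 7.04 and 15.2 CPM (1.01, 0.46 to 1.79), and this ratio fell short of 2-fold under total counts (0.94), the deposited TPM (0.80) and a pseudocount of 5 (0.75). Phlda2, a pleckstrin homology domain gene that limits placental growth, had 2, 18 and 35 counts, or 0.251, 1.43 and 3.72 CPM. It was at least 9.88-fold higher in GFP-high than the level of 3 counts in GFP-low. Asb4, a SOCS box protein gene, had 48, 24 and 4 counts, or 6.02, 1.90 and 0.425 CPM.

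Dlk1, a transmembrane relative of Notch ligands, was at 1.13, 3.72 and 5.73 CPM from GFP-low to GFP-high (log2 ratio 1.66, or 2.34 without the pseudocount, with a counting interval of 1.31 to 3.55), from 9, 47 and 54 counts, and the ratio was 0.81 with a pseudocount of 5. Its levels were 2.07, 1.78 and 3.01 CPM at days 0, 4 and 9, 4.69 and 6.52 CPM in the density experiment, and 10.98, 14.1, 10.5 and 11 CPM from DMSO to the top dose. The inhibitor series was thus the highest and the GFP-low fraction the lowest of the 12. Dio3, which encodes an enzyme that inactivates thyroid hormone and lies on chromosome 12 as Dlk1 does, had 4, 11 and 46 counts, or 0.502, 0.871 and 4.88 CPM. Plagl1, a zinc finger transcription factor, was at 6.65, 3.88 and 2.76 CPM (-1.02, -2.0 to -0.56), and fell short of 2-fold under total counts (-0.96), centring on the germ-cell list (-0.88), the deposited TPM (-0.82) and a pseudocount of 5 (-0.59). Plagl1 was at 9.20, 10.8 and 13.3 CPM at days 0, 4 and 9, at 14.55 and 13.3 CPM in the density experiment, and at 15.8, 15.8, 13.4 and 10.3 CPM from DMSO to the top dose, so that the 3 GFP fractions were the lowest. Between those fractions Impact was at 39.0, 26.7 and 19.1 CPM, with a log2 ratio of -0.99 just inside the limit.

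The inhibitor series asked how cells on feeders respond to UNC0638. At each dose 2 of the 35 genes (5.71%) differed at least 2-fold from DMSO, against 3.71%, 6.71% and 7.01% of all genes tested at 0.5, 1 and 2 µM. Of all genes, 1.58%, 2.59% and 3.42% were higher and 2.13%, 4.12% and 3.59% lower at these doses. At 1 and 2 µM these were Grb10, lower, and Cdkn1c, higher. At 0.5 µM they were Grb10 and Usp29, both lower, and Usp29, a ubiquitin protease gene, had 36 and 15 counts. The 3 comparisons share the DMSO library. Medians were 0.04, 0.03 and 0.10 for the maternally expressed and 0.00, -0.08 and -0.13 for the paternally expressed genes at 0.5, 1 and 2 µM.

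The ratio of Grb10 to DMSO was -1.08 at 0.5 µM (counting interval -1.55 to -0.73), -1.60 at 1 µM (-2.15 to -1.25) and -1.06 at 2 µM (-1.55 to -0.69). The value at 2 µM fell short of 2-fold with centring on the germ-cell list (-0.99) and with a pseudocount of 5 (-0.90), and the value at 0.5 µM with that pseudocount (-0.92). The fibroblast sum was 2.82-fold, 6.45-fold and 5.17-fold lower at the 3 doses, so that both were lowest at 1 µM. Paternally expressed genes short of 2-fold included Mest, a hydrolase family gene, at 74.5 CPM in the DMSO library and 48.7, 56.2 and 44.7 CPM at 0.5, 1 and 2 µM. Rasgrf1, a Ras guanine nucleotide exchange factor, was at 9.98, 5.97, 4.71 and 5.50 CPM in the same order. The DMSO library was the highest of its series for both genes.

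The feeder-removal series asked which transcripts change once cells leave the feeders. At day 4, 3 of the 35 genes (8.57%) differed at least 2-fold, against 2.28% of all genes tested, and all 3 had under 50 counts in their higher library. The shares were 1.25% higher and 1.03% lower among all genes. They were the maternally expressed Slc22a2, an organic cation transporter, with 30 and 9 counts, and the paternally expressed Peg10, a retrotransposon-derived gene, with 2 and 24, and Dio3 with 0 and 13. At day 9, 3 genes (8.57%) passed, against 2.60% of all genes, 1.62% higher and 0.979% lower: Cdkn1c and Slc22a2 lower and Dio3 higher. Cdkn1c was the one with at least 50 counts. Both comparisons share the day 0 library. On days 4 and 9 the median was 0.23 and 0.11 for paternally expressed genes, 0.08 and 0.04 for maternally expressed genes, and 0.03 and 0.02 for all genes tested.

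**Figure D3:**
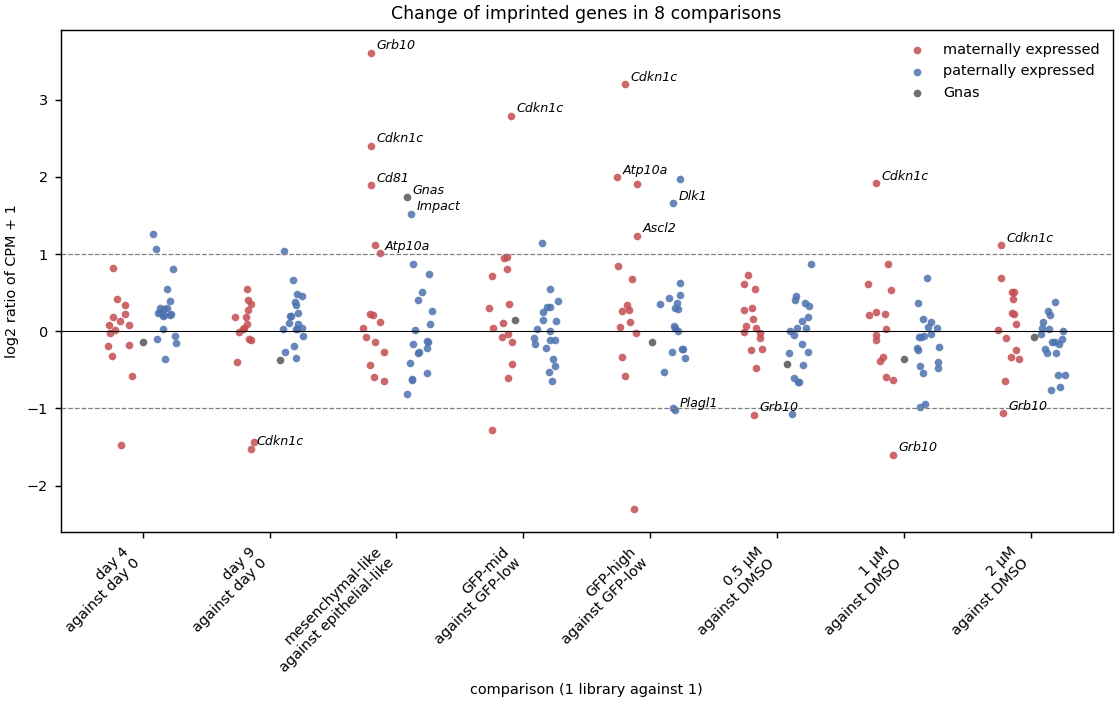
Log2 ratio of CPM + 1 for the 35 imprinted genes that passed the filter in 8 comparisons of 1 library with another; points are genes, dashed lines mark 2-fold, and names are given for changes with at least 50 counts in the higher library. Most points lie within the dashed lines, and Cdkn1c is named in 6 of the 8 comparisons.

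H19 and Igf2 share a control region on chromosome 7, where H19 spans 142575530 to 142578146 and Igf2 142650768 to 142666816 (GRCm38). H19, a long noncoding RNA that hosts miR-675, was at 22.4, 24.7 and 22.2 CPM at days 0, 4 and 9 and at 51.9 CPM in the epithelial-like and 38.2 CPM in the mesenchymal-like library. From GFP-low to GFP-high it was at 37.4, 61.9 and 60.5 CPM. With DMSO it was at 36.1 CPM, and with 0.5, 1 and 2 µM at 37.9, 35.1 and 51.8 CPM. None of the 8 comparisons reached 2-fold for H19, and in the density experiment its log2 ratio was -0.43, on the other side of 0 from the fibroblast markers.

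Igf2, the insulin-like growth factor that drives fetal growth, was at 77.8, 79.6 and 74.3 CPM at days 0, 4 and 9, and at 299 CPM in the epithelial-like and 320 CPM in the mesenchymal-like library. From GFP-low to GFP-high it was at 108, 159 and 167 CPM, and from DMSO to the top dose of UNC0638 at 245, 252, 239 and 254 CPM. Within an experiment its levels stayed within 2-fold, and between the experiments its ranges did not overlap. Igf2r, the receptor that carries IGF2 to lysosomes for breakdown, ranged from 72.2 to 153 CPM and passed 2-fold in none of the 8 comparisons.

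The 3 feeder-removal libraries lay outside the range of the other 9 for 6 of the 35 genes (17.1%), against 27.6% of all genes tested, a smaller share than the background. H19, Igf2 and Gnas were below it, and Atp10a, Gatm and Mkrn3 above. Atp10a was at 45.9, 36.65 and 42.7 CPM there and at 15.2 CPM or less elsewhere. Gatm, an enzyme of creatine synthesis, was at 13.03 to 14.2 CPM there and at 10.9 CPM or less elsewhere. Mkrn3, a RING finger gene, was at 17.7 to 19.7 CPM there and at 14.2 CPM or less elsewhere. No group occurred in more than 1 experiment, so a batch and an experiment cannot be told apart. The day 0 and DMSO libraries were both from cells on MEF feeders without UNC0638, in different experiments. In day 0 and DMSO, Grb10 was at 9.33 and 32.1 CPM, Cdkn1c at 56.1 and 17.6 CPM and the fibroblast sum at 398 and 3931 CPM. The cause of these differences was not tested.

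Other abundant genes changed less than 2-fold in all 8 comparisons. The maternally expressed Ube3a, a ubiquitin ligase that overlaps the antisense RNA Snhg14, was at 86.6, 76.0 and 98.9 CPM at days 0, 4 and 9 and at 82.6 and 90.3 CPM on sparse and dense Matrigel. It was at 81.1, 100.3 and 84.7 CPM over the GFP fractions and 99.2, 93.4, 101.2 and 93.7 CPM over the inhibitor series. The ranges of the density experiment and the inhibitor series did not overlap, while the feeder-removal and sorted series overlapped both.

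Slc38a4, a paternally expressed amino acid transporter gene, was at 276, 264 and 242 CPM in the feeder-removal series and at 157 and 129 CPM on sparse and dense Matrigel. It was at 155.5, 171 and 156 CPM over the GFP fractions and 259, 336, 268 and 230.2 CPM from DMSO to the top dose. The 7 libraries of the feeder-removal and inhibitor series were thus all above the other 5. Ndn, which encodes the MAGE family protein necdin, was at 53.15, 69.9 and 61.0 CPM in the feeder-removal series and at 59.85 and 111 CPM on sparse and dense Matrigel, a log2 ratio of 0.88. Over the GFP fractions Ndn was at 98.7, 72.1 and 77.7 CPM, and over the inhibitor series at 74.3, 72.02, 70.3 and 72.4 CPM. The mesenchymal-like library was its highest and day 0 its lowest.

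Nnat, a membrane proteolipid gene, was at 27.2, 32.0 and 29.2 CPM in the feeder-removal series and at 26.3 and 23.4 CPM on sparse and dense Matrigel. It was at 23.7, 23.7 and 30.7 CPM over the GFP fractions and 34.5, 38.1, 38.7 and 37.8 CPM over the inhibitor series, where all 4 libraries were above the other 8. Mest was at 51.7, 59.9 and 52.8 CPM in the feeder-removal series, 84.3 and 47.3 CPM on sparse and dense Matrigel, and 49.65, 42.5 and 41.2 CPM over the GFP fractions. Its highest library was the epithelial-like one, followed by DMSO. Mest overlaps Copg2, and Nnat lies within Blcap; the counting strand is not given in the sources used here, so reads of such pairs may be shared. Copg2, of the second list of imprinted genes, was at 191.5, 139 and 111.5 CPM from GFP-low to GFP-high and at 15.35 to 43.4 CPM in the other 9 libraries.

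The remaining genes stayed under 2-fold in every comparison with at least 50 counts. The maternally expressed Ppp1r9a, an actin-binding neuronal scaffold, ranged from 11.5 to 24.6 CPM, and Slc22a18, a solute carrier gene, had at most 36 counts. Of the paternally expressed genes, Peg3, a zinc finger gene, ranged from 31.2 to 73.99 CPM and was highest in the 3 sorted fractions. Snrpn, a spliceosomal protein gene that overlaps Snurf in RefSeq, ranged from 11.6 to 18.5 CPM. Inpp5f, a phosphoinositide phosphatase, ranged from 66.3 to 104 CPM, Sgce (epsilon-sarcoglycan) from 3.08 to 7.87 CPM, and Peg12 from 1.63 to 5.80 CPM. Peg12, at 2.07 and 4.40 CPM at days 0 and 4, was among the low genes whose change the pseudocount understates. Nap1l5, a nucleosome assembly gene, had at most 15 counts. Peg10 ranged from 0.259 to 9.39 CPM and was lowest at day 0.

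Genes were said to follow fibroblast RNA when they were at least 2-fold higher in the mesenchymal-like library and at least 2-fold lower at 2 µM than with DMSO, as the median fibroblast marker was (log2 medians of 3.86 and -2.30). Among the 35 genes Grb10 alone did so in both comparisons, a share of 2.86%, near the 1.99% of all genes tested. With centring on the germ-cell list or a pseudocount of 5, where its ratio at 2 µM was -0.99 or -0.90, 0 of the 35 did. Cd81, Gnas, Impact, Atp10a and Slc22a18 were 2-fold higher in the density experiment without a 2-fold fall at 2 µM, and Cdkn1c moved against the markers there. The other 28 met neither condition. These comparisons share no library.

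**Figure D4:**
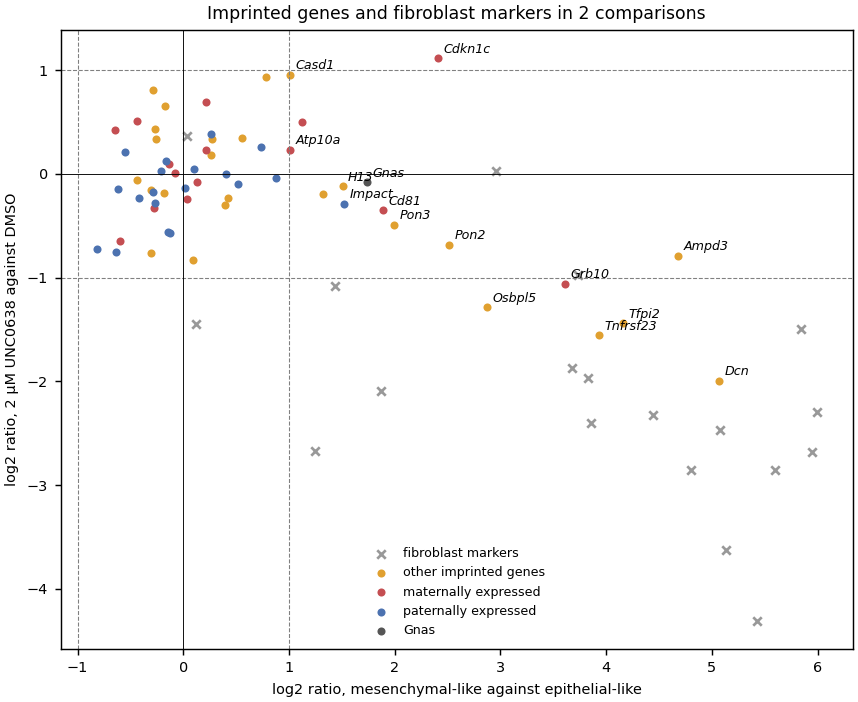
Log2 ratio of CPM + 1 between mesenchymal-like and epithelial-like (x axis) and between 2 µM UNC0638 and DMSO (y axis) for imprinted genes and fibroblast markers that passed the filter; each point is a gene and dashed lines mark 2-fold. Most fibroblast markers lie at the lower right, where Grb10 lies at 3.61 and -1.06, and Cdkn1c lies at the upper right.

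A second list of 34 imprinted genes outside the 44 was drawn up, of which 32 were matched and 25 passed the filter. In the density experiment 10 of the 25 (40.0%) were at least 2-fold higher and 0 lower, against 10.7% and 1.78% of all genes tested, with a median log2 ratio of 0.43 against -0.06. Of these, Tfpi2, Dcn, Osbpl5 and Tnfrsf23 were also at least 2-fold lower at 2 µM than with DMSO, which is 16.0% of the 25 against 1.99% of all genes tested. Tfpi2 had 21 counts with DMSO and 4 at 2 µM, and Osbpl5 had 52 and 16. The other 6 did not meet the condition at 2 µM, among them Ampd3, with log2 ratios of 4.68 for density and -0.79 at 2 µM. Dcn (decorin), a matrix proteoglycan abundant in fibroblasts, was at 0.939 CPM in the epithelial-like and 64.0 CPM in the mesenchymal-like library. With DMSO Dcn was at 128 CPM, and with 0.5, 1 and 2 µM at 61.0, 12.04 and 31.4 CPM. Osbpl5 and Tnfrsf23 lie in the same chromosome 7 domain as Cd81, Cdkn1c and Phlda2. Osbpl5 was at 6.10 CPM in the epithelial-like and 51.2 CPM in the mesenchymal-like library, and Tnfrsf23 at 3.29 and 64.5 CPM.

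Within that domain the genes did not move as a block. In the density experiment the log2 ratio was 3.93 for Tnfrsf23, 2.88 for Osbpl5, 2.41 for Cdkn1c and 1.89 for Cd81, against 0.22 for Phlda2, -0.08 for Ascl2, -0.14 for Tssc4 and -0.19 for Nap1l4. Between GFP-low and GFP-high the ratio was 3.20 for Cdkn1c, 1.91 for Phlda2 and 1.24 for Ascl2, against 0.12 for Tssc4 and -0.02 for Cd81. The Gtl2 row, of the Dlk1 domain on chromosome 12, had 5 counts in the epithelial-like and 35 in the mesenchymal-like library, and 17 with DMSO against 8 to 9 with UNC0638.

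A list of 18 genes that act on imprints held factors that set or maintain them and also Tet1 and Tet2, which oxidise methylcytosine and take part in its removal, and all 18 passed the filter. At 1 and at 2 µM 3 of them (16.7%) differed at least 2-fold from DMSO, against 6.71% and 7.01% of all genes, and in GFP-high 2 (11.1%) did, against 9.54%. At day 9 1 (5.56%) did, against 2.60%, and in the other 4 comparisons 0 did. Tet1 or Tet2 made up 2 of the 3 calls at 1 µM, 1 of the 3 at 2 µM and the call at day 9. Trim28, the corepressor that ZFP57 brings to imprinted control regions, was at 171, 261 and 446 CPM from GFP-low to GFP-high (log2 ratio 1.38, counting interval 1.29 to 1.47). Dnmt3l, the cofactor of the de novo DNA methyltransferases, was at 6.59 CPM in the DMSO library and 11.2, 14.7 and 16.95 CPM at 0.5, 1 and 2 µM UNC0638 (1.24 at 2 µM, 0.75 to 2.00). The other calls at these doses had under 50 counts: Tet1 (listed as Cxxc6) higher at 1 µM, Ctcfl higher at 2 µM, and Tet2 (listed as E130014J05Rik) lower at both, with 18 counts in the DMSO library and 6 and 5 counts. The zinc finger genes Zfp57 and Zfp445, whose products bind imprinted control regions, stayed under 2-fold with CPM + 1. Zfp57 had 14.4 CPM in the DMSO library and 15.8, 19.2 and 18.1 CPM at the 3 doses, and Zfp445 had 21.2 CPM and then 17.7, 10.99 and 10.5 CPM. The pseudocount kept the ratio of Zfp445 at 2 µM under 2-fold. In the density experiment 16 of the 18 were lower in the mesenchymal-like library, 0 of them 2-fold, with a median of -0.38, and the median of the germ-cell markers there was -0.37.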

How the data were processed

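Total RNA of 12 mouse libraries, each its own group, was sequenced after a modified Smart-seq2 amplification, per the labels' protocols; 4 ATAC-seq libraries were not analysed here. The authors deposited RSEM tables with expected (estimated) counts, TPM and FPKM per gene. Trim Galore, RSEM and the mm10 build are named in the submitters' processing notes; the aligner and annotation release are not given in the sources used here. The deposited expected counts were rounded to whole numbers and scaled by TMM (edgeR 4.0.16, R 4.3.3; factors 0.912 to 1.07) to CPM. The deposited TPM values served for levels between genes and as an alternative scaling, and the deposited FPKM values were not analysed.

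Ratios are log2 of CPM + 1 between 2 libraries, for genes whose mean over the libraries reached 1 CPM, and at least 2-fold was called. With 1 library per group there is no test, and 95% Clopper-Pearson intervals of the read split cover counting error only. Totals of 4335185 to 12019651 counts set the precision. A library level under 3 counts was replaced by 3 counts where a lower bound of a fold is given. The ratio script was checked on simulated counts. Values per library are given for members called in at least 1 of 8 comparisons with at least 50 counts in the higher library and for the 5 most abundant of each class; other members are given by range or count, with values beside some. The members, lists and rules were chosen with earlier results of these data known. Alternatives were DESeq2 1.42.0 size factors, total counts, centring on the germ-cell list, TPM as deposited, a pseudocount of 0.1 or of 5, and a filter of 10 CPM or none. Promoter windows and gene positions came from RefSeq (GRCm38.p6).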

Additional observations from a re-analysis of the deposited data

How the results depend on the processing

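No paired analysis was possible because each group had 1 library, and for the same reason no library could be left out. Counts of imprinted genes at least 2-fold changed stayed within 1.5 times the reported count in 47 of 64 alternatives. With a pseudocount of 0.1 the count was 5 at day 4 (reported 3), 6 for GFP-mid (reported 3) and 6 at 1 µM (reported 2), and the share of all genes called rose too, from 2.28%, 4.07% and 6.71% to 7.21%, 8.86% and 11.6%. With a pseudocount of 5 it was 0 at day 4, 1 at day 9 (reported 3), 1 for GFP-mid, 3 for GFP-high (reported 8), 0 at 0.5 µM and 0 at 2 µM (reported 2 at each), while 0.119%, 0.210%, 1.27%, 3.64%, 0.531% and 1.59% of all genes were called. A filter of 10 CPM left 21 of the 35 members and 9598 genes. It gave 0 at day 4, 1 at day 9, 1 for GFP-mid, 3 for GFP-high and 1 at 0.5 µM, beside 0.302%, 0.875%, 2.92%, 6.48% and 1.00% of all genes. Centring on the germ-cell list gave 5 for GFP-mid (5.66% of all genes) and 1 at 2 µM (7.57%), and the deposited TPM gave 1 at 0.5 µM (3.26%); the cause was not tested. The count in the density experiment (reported 7) ranged from 5 to 9. None of the 18 changes with at least 50 counts turned direction under the alternatives run. Of these, 7 were under 2-fold with a pseudocount of 5, 2 with total counts, 2 with the deposited TPM, 2 with germ-cell centring, and 0 with DESeq2 size factors or a pseudocount of 0.1. Germ-cell centring moved the median of all genes by 0.37 (log2) in the density experiment, 0.15 for GFP-mid and GFP-high and -0.15 at 0.5 µM, and the deposited TPM moved it by 0.11 at day 9 and 0.13 for GFP-high. Depth limits the changes with few counts, such as that of Slc22a18 with 1 and 7 counts in the density experiment.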
